A study of Mus musculus with 24 samples.

Results

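The enzymes of the tricarboxylic acid cycle were followed across lung RNA from mice given ovalbumin or saline while breathing diesel exhaust or filtered air. The genes are Cs, Idh2, Idh3a, Idh3b, Idh3g, Ogdh, Suclg1, Fh1 and Mdh2. They were measured by the probe sets annotated with exactly 1 of these symbols and no other, 16 of the 22626 probe sets that are not Affymetrix controls. Of the 16, 15 passed the filter on low signal, as did 13575 probe sets in all, and were tested. The 16th, Idh3a probe set 1422500_at, had a mean log2 signal of 7.04, just under the limit of 7.11. The study has 6 groups of 4 arrays. The ovalbumin (OVA) arm, with 100 ug OVA on 3 days, holds air_OVA (filtered air), DE500_OVA (diesel exhaust at 500 ug/m3) and DE2000_OVA (diesel exhaust at 2000 ug/m3). The saline arm holds air_saline, DE500_saline and DE2000_saline, under the same 3 atmospheres. All groups were in the exposure for 4 hours a day on 5 days. The labels used here name no strain, sex or age and do not say whether replicates are separate animals, so p-values measure the spread between these arrays, which may be technical.

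The tricarboxylic acid cycle runs in the mitochondrial matrix, where it oxidises acetyl groups from sugars, fats and amino acids and passes the electrons to the respiratory chain. Citrate synthase starts it, isocitrate and 2-oxoglutarate dehydrogenase carry its oxidative decarboxylations and are points of control, and succinyl-CoA ligase, succinate dehydrogenase, fumarase and malate dehydrogenase regenerate oxaloacetate, with further oxidations at both dehydrogenases. In the lung it serves energy supply in many cell types, and its citrate can feed the lipid synthesis that alveolar type 2 cells need for surfactant. In whole lung, fewer cells of a type and less RNA per cell cannot be told apart.

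Between the arms, 7 of the 15 tested probe sets passed the test at an adjusted p below 0.05, 5 higher and 2 lower with OVA, where 46.3% of all tested probe sets did so. Their share, 7 of 15, lay close to that background. The higher ones belonged to Idh3a (2 probe sets), Idh2, Cs and Idh3g, and the lower ones to Ogdh and Idh3g. Over the 15, the log2 difference of OVA from saline ranged between -0.35 and 1.06 with a median of 0.09, beside a median of -0.01 over all tested probe sets. No member separated the 12 OVA from the 12 saline arrays without overlap, which 1.77% of the tested probe sets did. Tests are limma's, on log2 signal with 1 mean per group, and a value after ± is a standard error unless it is called an SD.

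The arms also differed in how evenly signal covered the transcripts. The log2 ratio of 3' to 5' control probe sets, averaged over Gapdh and actin and called the 3'/5' ratio here, grows where the 5' part of transcripts gives less signal. It lay between -0.13 and 0.20 on 11 of the 12 OVA arrays and at 2.02 on DE2000_OVA replicate 4, against 0.10 to 4.38 on the saline arrays. In DE500_saline it was 4.38 and 3.77 in replicates 1 and 4, and 0.33 and 0.10 in replicates 2 and 3. Because ratio and arm barely overlap, their contributions to a difference between the arms cannot be told apart by the design alone. Each OVA difference was therefore also fitted with the ratio in the model, where 3 of the 15 members passed (Idh3a probe set 1432016_a_at, Idh2 and Ogdh) beside 14.1% of all tested probe sets. The signal of the B1 repeat control probe set differed between the arms as well, at log2 10.85 to 12.43 with OVA and 12.08 to 13.83 with saline. The 12.43 was DE2000_OVA replicate 4, and the other 11 OVA arrays, at up to 11.94, lay below every saline array. B1 signal and arm thus barely overlap either, and the design alone cannot tell their contributions apart. With the B1 signal in the model none of the 15 passed in limma, 6 had an unadjusted p below 0.05, and 4.1% of all tested probe sets passed. With the ratio and the B1 signal together none passed, 2 had an unadjusted p below 0.05, and the share of all tested probe sets was 1.69%.

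Idh2 and Ogdh are each measured by 1 probe set, and their promoter windows are shown because both passed the test between the arms with and without the ratio in the model, and have a RefSeq window of 250 bases before to 50 after a transcript start (GRCm38.p6). The Idh2 window is chr7:80115301-80115600 on the minus strand. Its transcript start lies inside the gene's span of 80094845 to 80118608, not at the end of that span. The first of 6 Ogdh windows is chr11:6291347-6291646 on the plus strand. Capitals mark the only match found in the windows shown among the motifs searched.
Idh2: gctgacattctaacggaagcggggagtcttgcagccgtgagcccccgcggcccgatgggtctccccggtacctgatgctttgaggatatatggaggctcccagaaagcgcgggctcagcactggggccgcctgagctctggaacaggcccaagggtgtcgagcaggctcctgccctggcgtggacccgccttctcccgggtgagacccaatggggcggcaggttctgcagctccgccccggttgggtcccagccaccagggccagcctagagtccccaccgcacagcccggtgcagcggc
Ogdh: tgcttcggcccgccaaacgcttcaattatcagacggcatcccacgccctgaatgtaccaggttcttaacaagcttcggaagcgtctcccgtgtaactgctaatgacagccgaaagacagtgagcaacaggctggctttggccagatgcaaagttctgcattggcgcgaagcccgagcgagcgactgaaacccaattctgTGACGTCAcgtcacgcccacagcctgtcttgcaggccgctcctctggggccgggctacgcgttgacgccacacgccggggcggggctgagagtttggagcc
The capitals in the Ogdh window are the cyclic AMP response element TGACGTCA, whose first base lies 51 bases before the start. Motifs were searched on both strands in all 32544 distinct windows. TGACGTCA was in 1.80% of them, the NRF1 motif GCATGCGC in 2.73%, the ETS motif CCGGAAGT in 3.92%, the estrogen-related receptor motif AAGGTCA in 4.71% and the E-box CACGTG in 7.17%. Among the 8 member genes with a window, which have 13 windows, TGACGTCA was found in Mdh2, at -127, and in the first 3 Ogdh windows, at -51, -60 and -113 from their own starts. Ogdh windows further downstream held the estrogen-related receptor motif at -5 and an E-box at -110 in one, and the NRF1 motif at -15 and -36 and an E-box at -141 and -162 in a pair of overlapping ones. No window of Cs, Fh1, Idh2, Idh3b, Idh3g or Suclg1 held any of the 5 motifs. Such matches describe letters only.

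Cs, on chromosome 10 (GRCm38.p6, 128337727 to 128362482), encodes citrate synthase, which joins acetyl-CoA to oxaloacetate. Its 3 probe sets did not behave as one. Probe set 1422577_at had log2 signals of 8.29, 9.52 and 9.76 (lowest, median, highest) over the OVA arrays, against 8.37, 8.73 and 9.36 over the saline arrays. Of the OVA arrays, 8 lay above every saline array, and DE2000_OVA replicate 4 lay below all of them. It rose by 0.64 ± 0.13 with OVA (adjusted p = 3.917e-04). The most abundant signal, from probe set 1450667_a_at, had a difference of -0.23 ± 0.11 that missed the threshold (adjusted p = 0.103), and without DE2000_OVA replicate 4 it was called at -0.30 (adjusted p = 0.0185). The middle one, 1422578_at, differed by 0.25 ± 0.11 (adjusted p = 0.0558). None of the 3 passed with the ratio in the model, where the differences were 0.11 ± 0.10 for 1450667_a_at, 0.03 ± 0.12 for 1422578_at and 0.31 ± 0.14 for 1422577_at (adjusted p = 0.553, 0.924 and 0.128). After group means were taken out, 1450667_a_at and 1422577_at ran against each other over the 24 arrays (Pearson r = -0.60). With the ratio removed too, r was -0.215.

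Idh3a encodes the catalytic alpha subunit of the NAD-dependent isocitrate dehydrogenase and lies on chromosome 9 (54586511 to 54604662). Its probe set 1432016_a_at had the largest difference between the arms among the 15 tested. The log2 signals were 10.25, 10.08, 10.16 and 10.18 in air_OVA, 10.26, 10.20, 10.19 and 10.23 in DE500_OVA, and 10.25, 10.32, 10.31 and 9.68 in DE2000_OVA. In the saline arm they were 9.35, 9.30, 8.82 and 9.30 in air_saline, 8.66, 9.80, 9.76 and 8.63 in DE500_saline, and 8.92, 9.24, 8.94 and 8.73 in DE2000_saline. Of the 12 OVA arrays, 11 lay above every saline array, and the exception, DE2000_OVA replicate 4, is the OVA array with the high 3'/5' ratio. The difference was 1.06 ± 0.13 (2.08-fold, adjusted p = 1.753e-06), and 0.59 ± 0.08 (1.51-fold, adjusted p = 2.726e-05) with the ratio in the model. With the B1 signal in the model it was 0.28 ± 0.14 (adjusted p = 0.265), and with the ratio and the B1 signal 0.55 ± 0.14 (adjusted p = 0.0532). Both DE500_saline arrays with low ratios, replicates 2 and 3, had the highest saline signals, 9.80 and 9.76, below the 4 DE500_OVA arrays and above the 9.68 of DE2000_OVA replicate 4.

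**Figure D1:**
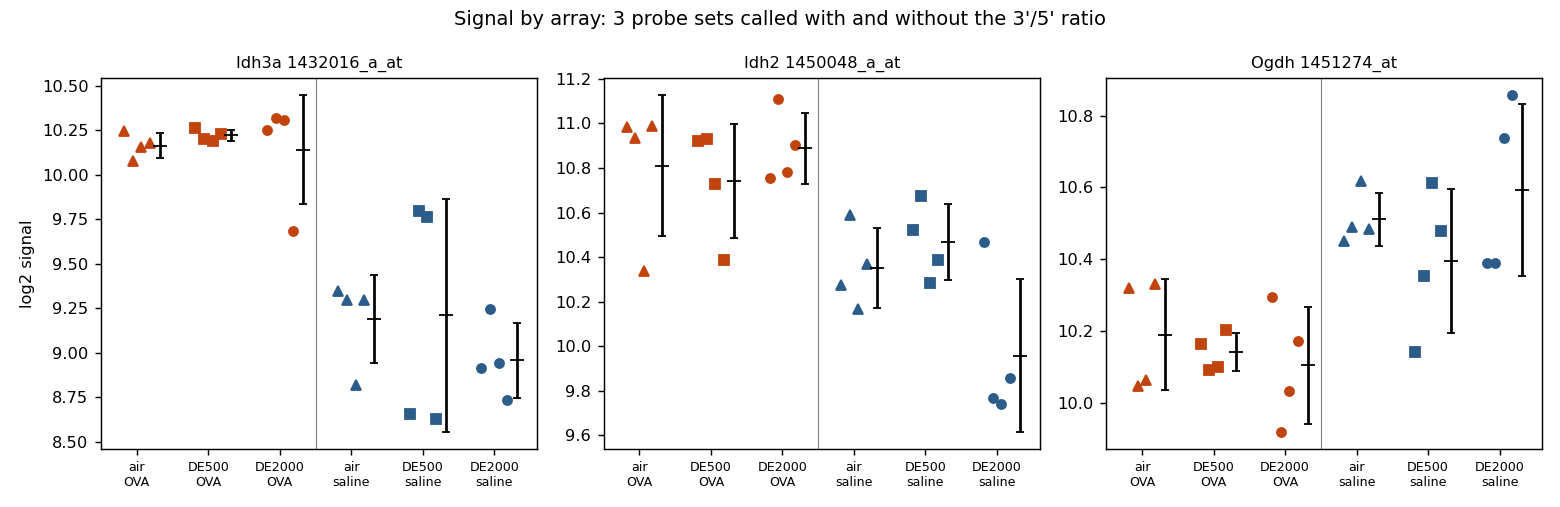
Log2 signal of Idh3a 1432016_a_at, Idh2 and Ogdh on each of the 24 arrays, by group, OVA groups at left in orange and saline groups at right in blue; black marks are the group mean ± SD (n = 4). For Idh3a, 11 OVA arrays lie above every saline array; for Ogdh, 11 saline arrays lie above every OVA array.

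A second Idh3a probe set, 1422501_s_at, rose less, by 0.29 ± 0.11 (adjusted p = 0.0385), with signals of 7.80, 8.42 and 8.58 over the OVA arrays and 7.48, 8.20 and 8.47 over the saline arrays. Its difference was 0.05 ± 0.13 with the ratio in the model (adjusted p = 0.843). The untested 1422500_at had signals of 6.94, 7.32 and 7.59 with OVA against 6.27, 6.73 and 7.40 with saline. All 3 Idh3a probe sets were higher on average in the OVA arm, with overlapping arms.

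Idh3b and Idh3g encode the beta and gamma subunits, which regulate the same enzyme. Idh3b (chromosome 2, 130279309 to 130284451) was not called by either probe set: 1418886_s_at differed by 0.09 ± 0.06 (adjusted p = 0.220) and 1418885_a_at by -0.29 ± 0.18 (adjusted p = 0.185). The 95% interval of the first, -0.03 to 0.22, was the narrowest of the 15. Idh3g (chromosome X, 73778963 to 73786897) was called in opposite directions by its probe sets. Probe set 1416789_at rose by 0.35 ± 0.10 (adjusted p = 0.00572), with 10.22, 10.68 and 10.91 on the OVA arrays against 9.68, 10.42 and 10.61 on the saline arrays. Probe set 1416788_a_at fell by 0.25 on the log2 scale (SE 0.10, adjusted p = 0.0390), with 10.27, 10.71 and 11.51 against 10.51, 11.00 and 11.26. In 12 of the 24 fits that left out 1 array, this fall no longer passed, with adjusted p up to 0.0784. Both were near 0 with the ratio in the model, at 0.05 ± 0.09 for 1416789_at and 0.03 ± 0.10 for 1416788_a_at.

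Idh2 (chromosome 7, 80094845 to 80118608) encodes the NADP-dependent mitochondrial isocitrate dehydrogenase, which supplies NADPH for antioxidant defence. Its log2 signals were 10.98, 10.93, 10.34 and 10.99 in air_OVA, 10.92, 10.93, 10.73 and 10.39 in DE500_OVA, and 10.76, 11.11, 10.78 and 10.91 in DE2000_OVA. The saline groups had 10.27, 10.59, 10.17 and 10.37 in air_saline, 10.52, 10.68, 10.28 and 10.39 in DE500_saline, and 10.47, 9.77, 9.74 and 9.86 in DE2000_saline. Thus 10 OVA arrays exceeded all saline arrays, while air_OVA replicate 3 and DE500_OVA replicate 4 lay among them. Idh2 rose by 0.56 ± 0.10 (1.47-fold, adjusted p = 1.286e-04), and by 0.55 ± 0.13 (adjusted p = 0.00527) with the ratio in the model. With the B1 signal in the model it differed by 0.47 ± 0.18 and was not called (adjusted p = 0.150).

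Ogdh (chromosome 11, 6291597 to 6359094) encodes the decarboxylating subunit of the 2-oxoglutarate dehydrogenase complex. Its log2 signals were 10.32, 10.05, 10.06 and 10.33 in air_OVA, 10.17, 10.09, 10.10 and 10.20 in DE500_OVA, and 10.29, 9.92, 10.03 and 10.17 in DE2000_OVA. In saline they were 10.45, 10.49, 10.62 and 10.48 with air, 10.14, 10.35, 10.61 and 10.48 at DE 500, and 10.39, 10.39, 10.74 and 10.86 at DE 2000. Every saline array except DE500_saline replicate 1, the one with the highest 3'/5' ratio, lay above all OVA arrays. Ogdh fell by 0.35 on the log2 scale (SE 0.07, 0.782-fold, adjusted p = 4.536e-04), and by 0.41 (SE 0.09, adjusted p = 0.00429) with the ratio in the model. The B1 signal in the model gave -0.40 ± 0.13, which was not called (adjusted p = 0.0954).

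The calls of Idh2 and Ogdh with the ratio rested in part on single arrays. Without DE500_saline replicate 3, which has the lowest ratio of the saline arm, Idh2 differed by 0.46 ± 0.15 (adjusted p = 0.0578) and Ogdh by -0.34 ± 0.11 (adjusted p = 0.0523), while Idh3a 1432016_a_at remained called at 0.58 ± 0.10 (adjusted p = 5.200e-04). On the 21 arrays left without DE2000_OVA replicate 4 and DE500_saline replicates 1 and 4, the ratio fit again called Idh3a 1432016_a_at alone, at 0.65 ± 0.13 (adjusted p = 0.00533), with 0.51 ± 0.22 for Idh2 and -0.39 ± 0.15 for Ogdh (adjusted p = 0.178 and 0.125).

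The remaining enzymes catalyse the later steps, and with group means none was called between the arms or had an unadjusted p below 0.05 in limma. Suclg1 (chromosome 6, 73248505 to 73276907), the alpha subunit of succinyl-CoA ligase, differed by 0.07 ± 0.08 (95% interval -0.10 to 0.23), and Fh1 (chromosome 1, 175601378 to 175625635), fumarase, by 0.08 ± 0.09 (-0.11 to 0.27). Mdh2 (chromosome 5, 135778649 to 135790386), the mitochondrial malate dehydrogenase, differed by 0.18 ± 0.14 in probe set 1433984_a_at (-0.12 to 0.48) and by -0.09 ± 0.11 in 1416478_a_at (-0.32 to 0.13). The Mdh2 differences with the ratio in the model were 0.44 ± 0.17 and 0.18 ± 0.11 (adjusted p = 0.0852 and 0.306), the first with an unadjusted p of 0.0160 in limma.

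**Figure D2:**
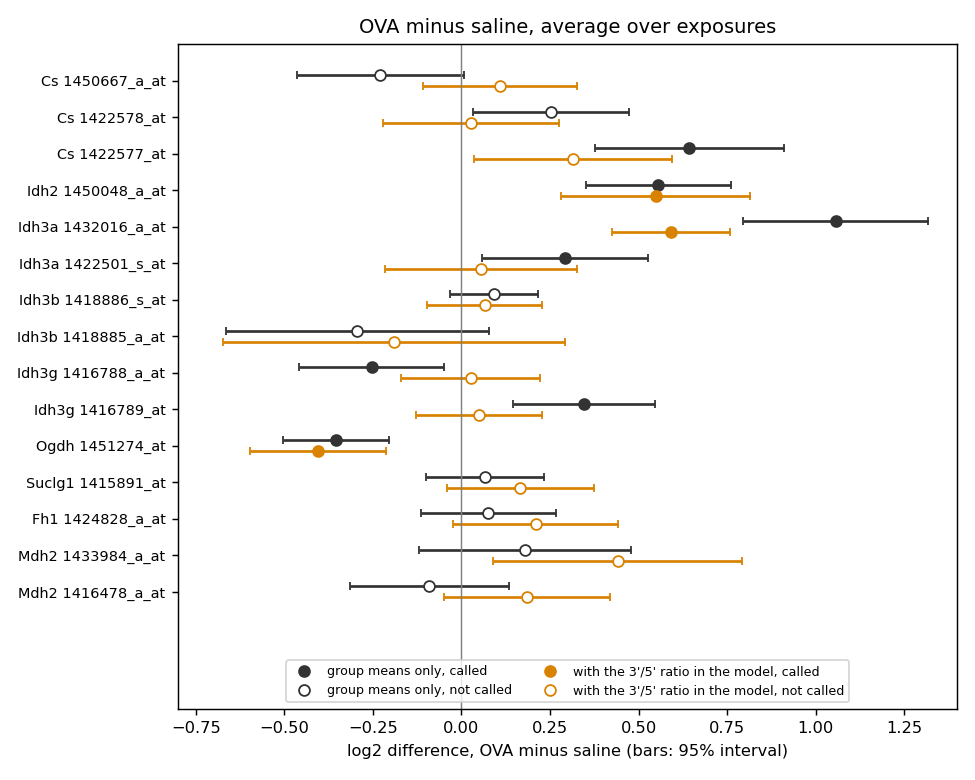
Log2 difference of OVA from saline (horizontal axis), average over the 3 atmospheres, for the 15 tested probe sets, with group means only (black) and with the 3'/5' ratio in the model (orange); bars are 95% intervals and filled points passed at an adjusted p below 0.05. Idh3a 1432016_a_at, Idh2 and Ogdh are filled in both fits, and none of the 15 passed with the B1 signal in the model, which is not plotted.

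Within groups, many members followed the 3'/5' ratio. The slope of log2 signal on the ratio was called for 8 of the 15 members, beside 37.9% of all tested probe sets. It was positive for Cs 1450667_a_at (0.21), Idh3g 1416788_a_at (0.17) and Mdh2 1416478_a_at (0.17). It was negative for Idh3a 1432016_a_at (-0.28), Cs 1422577_at (-0.20), Idh3g 1416789_at (-0.18), Idh3a 1422501_s_at (-0.15) and Cs 1422578_at (-0.14). Idh2 and Ogdh, by contrast, had slopes of -0.00 and -0.03 that were not called (adjusted p = 0.958 and 0.555). For 11 of 15 members the slope and the OVA difference had opposite signs, as they had for 77.5% of all tested probe sets. On the 21 arrays with closer ratios 0 of the 15 slopes were called in limma and 3 had an unadjusted p below 0.05. The share of all tested probe sets called on those arrays is not given here. The count is therefore not read as particular to the members.

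**Figure D3:**
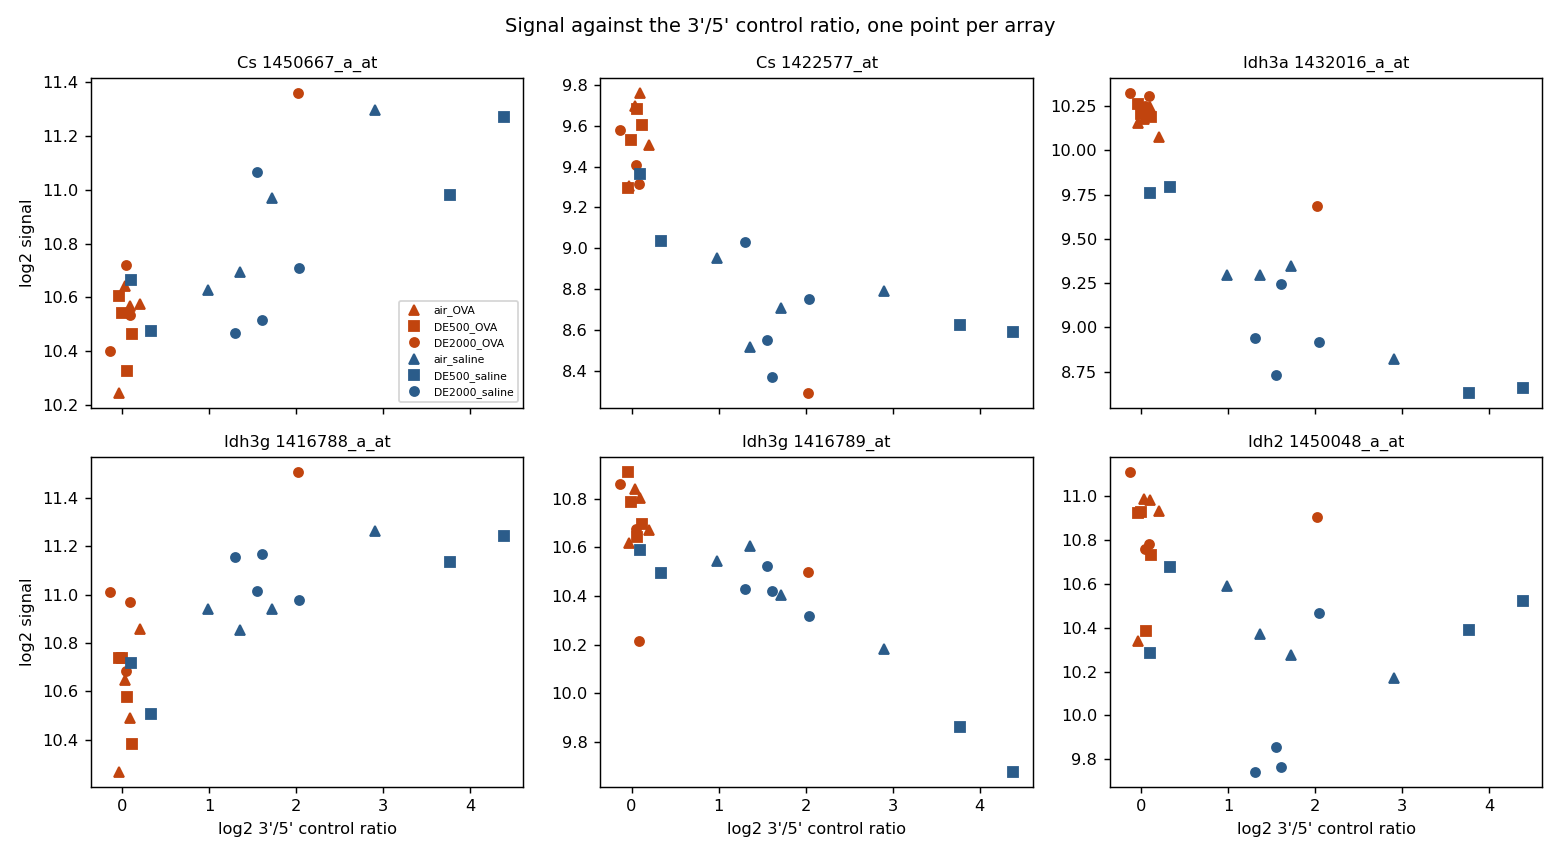
Log2 signal (vertical axis) against the log2 3'/5' control ratio (horizontal axis) on each of the 24 arrays for 6 member probe sets; orange marks OVA, blue saline, and triangles, squares and circles stand for air, DE 500 and DE 2000. Within each of Cs and Idh3g, 1 plotted probe set climbs with the ratio and the other declines. The slope of Idh2 within groups, which is not drawn, is -0.00, while its mean signal is 10.81 with OVA and 10.26 with saline.

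Probe sets of 1 gene often disagreed. Of the 5 member genes with several tested probe sets, 4 had OVA differences of both signs, which 49.8% of such genes on the whole array had. With the ratio in the model this held for 1 of the 5, Idh3b, beside 43.8%. Called both ways was Idh3g alone, 1 of 5 beside 12.6% of such genes. Over the arrays, with group means removed, the Idh3g probe sets correlated at r = -0.49, and at 0.27 once the ratio was removed too. Other pairs parted instead: Idh3a 1432016_a_at had r = 0.55 with 1422501_s_at and 0.26 with 1422500_at, and 0.06 and -0.57 with the ratio removed. For Cs 1422578_at with 1422577_at the values were 0.11 and -0.38.

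**Figure D4:**
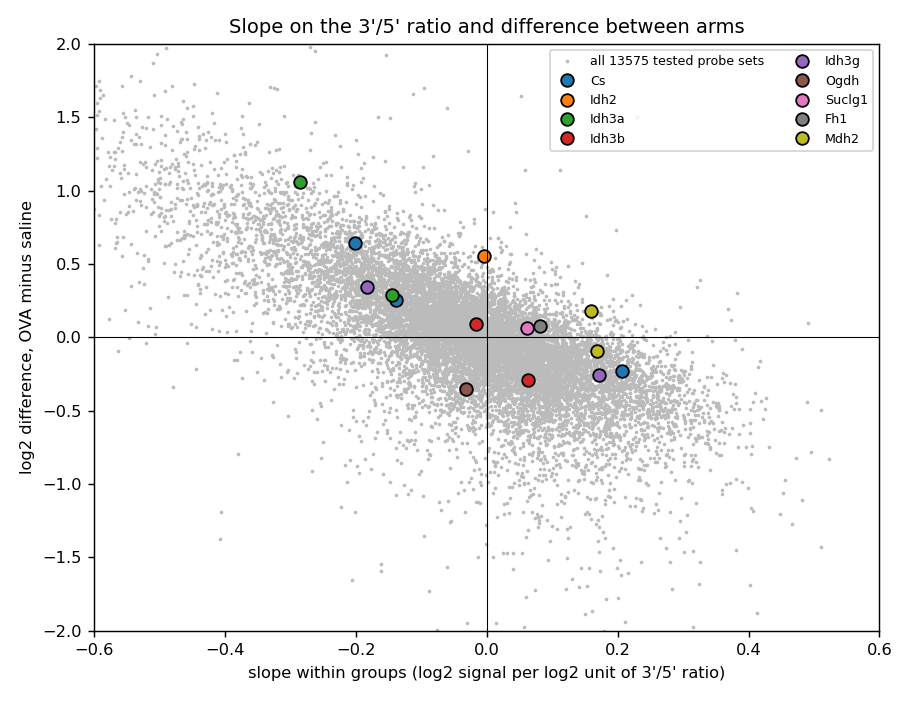
Slope of log2 signal on the 3'/5' ratio within groups (horizontal axis) and log2 difference of OVA from saline (vertical axis) for all 13575 tested probe sets in grey, of which 270 fall outside the plotted range, and for the 15 member probe sets in colour. Idh2 (0.56) and Ogdh (-0.35) lie near a slope of 0 and away from a difference of 0.

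Within each atmosphere, Idh3a 1432016_a_at was the one member called at every exposure with group means, at 0.97 ± 0.22 in air, 1.01 ± 0.22 at DE 500 and 1.18 ± 0.22 at DE 2000 (adjusted p = 0.00952, 0.00681 and 8.326e-04). In air 2 of 15 members were called, beside 14.8% of all tested probe sets, the other being Cs 1422577_at (0.83 ± 0.22). At DE 500 there were 2, beside 12.5%, the other being Idh3g 1416789_at (0.60 ± 0.17). Without the 3 arrays that stand apart in the ratio, neither was called at DE 500, with 0.44 ± 0.15 for Idh3a 1432016_a_at and 0.21 ± 0.15 for Idh3g 1416789_at (adjusted p = 0.181 and 0.656). At DE 2000 there were 3, beside 18.1%, with Idh2 at 0.93 ± 0.17 and Ogdh at -0.49 ± 0.13 (adjusted p = 8.251e-04 and 0.00972). For Idh2 the differences at the lower exposures were 0.46 ± 0.17 in air and 0.28 ± 0.17 at DE 500, and neither passed. Whether the OVA difference of Idh2 depended on exhaust was tested as an interaction: it was larger at DE 2000 than in air by 0.47 ± 0.24 (95% interval -0.03 to 0.97, adjusted p = 0.854).

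With the ratio in the model, the call count was 1 of 15 in air beside 1.77% of all tested probe sets (Idh3a 1432016_a_at at 0.50 ± 0.12, adjusted p = 0.0290). At DE 500 it was 0 of 15 in limma, with 2 at an unadjusted p below 0.05, beside 1.16%, and Idh3a 1432016_a_at stood at 0.41 ± 0.12 (adjusted p = 0.116). At DE 2000 it was 3 of 15 beside 15.7%, namely Idh2 at 0.93 ± 0.18, Idh3a 1432016_a_at at 0.86 ± 0.11 and Ogdh at -0.52 ± 0.13.

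Diesel exhaust against filtered air gave no called member in either arm. The number called was 0 of 15 in each of the 4 comparisons, which share their air group within an arm. With group means, limma called 0.0% of all tested probe sets at DE 500 and 0.0221% at DE 2000 in the OVA arm. In the saline arm it called 0.00737% at DE 500 and 0.147% at DE 2000. In the OVA arm 0 members at DE 500 and 1 at DE 2000 had an unadjusted p below 0.05 in that fit. The saline arm likewise had 0 at DE 500 and 1 at DE 2000. In the OVA arm the 1 was Idh3g 1416788_a_at, at 0.48 ± 0.17 (adjusted p = 0.549), with DE2000_OVA replicate 4, the array with the high ratio, at 11.51 and the other 3 between 10.69 and 11.01. In the saline arm it was Idh2, at -0.39 ± 0.17 (adjusted p = 0.747). Its signals of 9.77, 9.74 and 9.86 in DE2000_saline lay below all 4 air_saline arrays, and the 10.47 of replicate 1 lay among them. The summed signal of the 12 neutrophil markers on the array was 8342.4 to 13794.0 in DE2000_saline against 4675.6 to 7079.2 in air_saline. Its part in the Idh2 values was not tested. With group means, 0 of 15 members were called in limma for either interaction, of DE 500 or of DE 2000 with OVA. In that fit 0 had an unadjusted p below 0.05, and 0.0% of all tested probe sets were called for either. With the ratio in the model, limma again called 0 of 15 in these exhaust comparisons and interactions. Unadjusted p-values below 0.05 then numbered 2 at DE 2000 in saline, 1 at DE 2000 in OVA and 2 for the DE 2000 interaction. The DE 500 comparisons had 0. The largest share of all tested probe sets called there was 0.413% higher and 0.14% lower, for DE 500 in saline.

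Leaving out the 3 arrays that stand apart in the ratio changed 1 exhaust result. Idh3a 1432016_a_at then rose by 0.59 ± 0.15 at DE 500 against air in saline (adjusted p = 0.0168). That comparison rests on DE500_saline replicates 2 and 3, whose ratios of 0.33 and 0.10 lie below the 0.98 to 2.90 of the air_saline arrays. With the ratio in the model on the same arrays it was 0.24 ± 0.20 (adjusted p = 0.973).

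**Figure D5:**
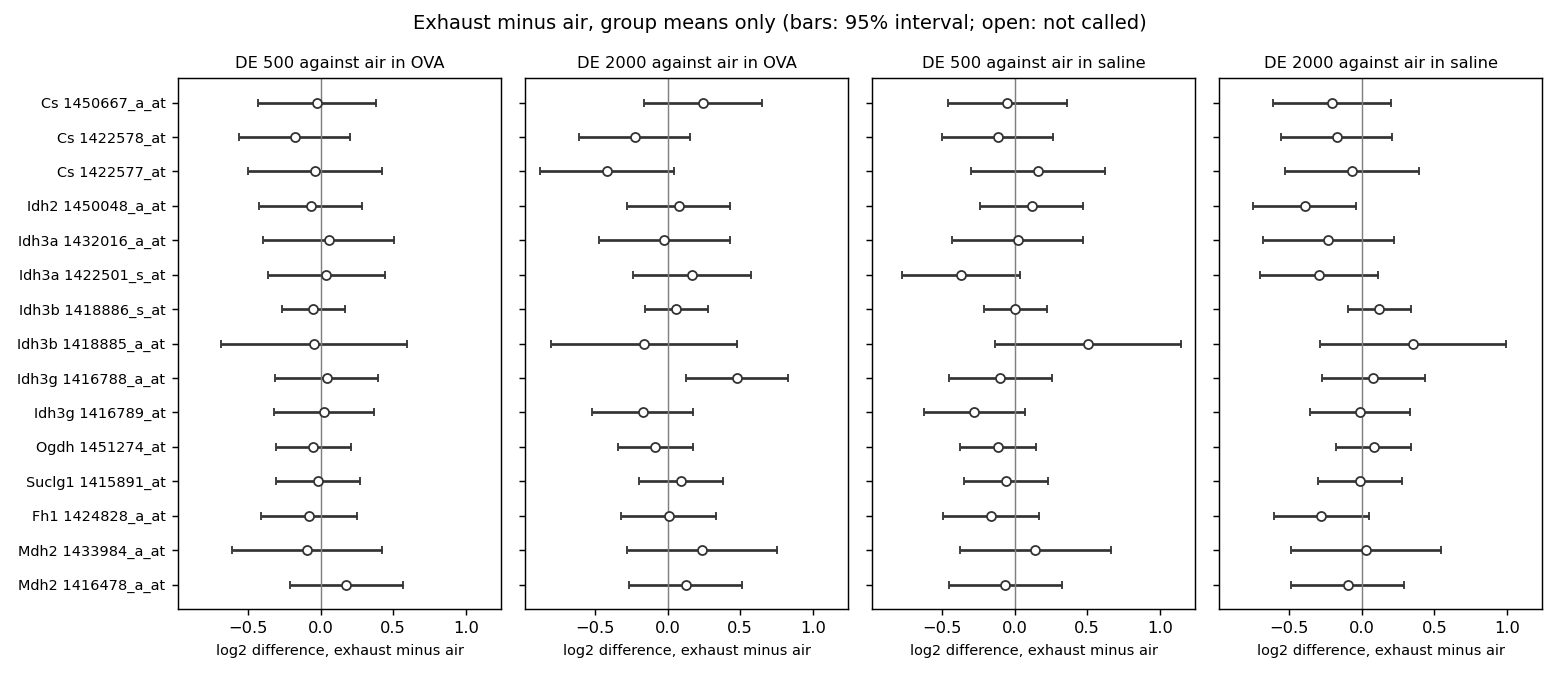
Log2 difference of diesel exhaust from filtered air for the 15 tested probe sets, OVA arm in the left panels and saline arm in the right panels, DE 500 before DE 2000, group means only; bars are 95% intervals. All points are open, since none passed; the point estimates lie between -0.42 and 0.50.

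The other enzymes of the cycle moved in the same comparison as follows. Of 9 further subunits and enzymes, 8 were tested, and 4 rose and 1 fell with OVA, with a median difference of 0.21, where over the 8315 tested genes, each by its brightest probe set, 1599 rose and 2029 fell with a median of -0.03. Dld, the dihydrolipoamide dehydrogenase shared by the pyruvate and 2-oxoglutarate complexes, rose by 1.03 ± 0.18, and Suclg2, the GTP-specific beta subunit of succinyl-CoA ligase, by 0.83 ± 0.17. Sdhd, a membrane anchor of succinate dehydrogenase, rose by 0.71 ± 0.12 in its brighter probe set and differed by 0.04 ± 0.21 in the other. Sdhb, its iron-sulphur subunit, named after its values were seen, rose by 0.18 ± 0.07 (adjusted p = 0.0467). Sdha, a further subunit also named after its values were seen, differed by 0.00 ± 0.06 in its brighter probe set. The other Sdha probe set, 1426689_s_at, was called lower, at -0.42 ± 0.10 (adjusted p = 0.00122). With the ratio it stood at -0.14 ± 0.09 and was not called (adjusted p = 0.334). Dlst, the transferase subunit of the complex that holds Ogdh, fell by 0.34 (SE 0.10). With the ratio in the model 3 of the 8 passed, all higher: Dld at 0.56 ± 0.18, Sdhd at 0.49 ± 0.15 and Sdhb at 0.30 ± 0.09 (adjusted p = 0.0408, 0.0282 and 0.0222). Suclg2 and Dlst then stood at 0.31 ± 0.16 and -0.06 ± 0.10, neither called, and over the 8315 genes 342 rose and 732 fell.

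Pathways next to the cycle, each gene again by its brightest probe set, gave fewer calls once the ratio was in the model, as the 8315 tested genes did. Of 8 tested genes of pyruvate entry 3 rose, and 1 with the ratio: Mpc1, a subunit of the mitochondrial pyruvate carrier, at 0.88 ± 0.15 and 0.35 ± 0.10 with the ratio. Pdk4, a kinase that switches off pyruvate dehydrogenase, rose by 0.50 ± 0.18 and stood at 0.49 ± 0.23 with the ratio, where it missed the threshold (adjusted p = 0.172). Other probe sets of this list, named after their values were seen, did pass with the ratio: Pdha1 1449137_at at 0.61 ± 0.16 and Dlat 1426264_at at 0.70 ± 0.18 (adjusted p = 0.00876 and 0.00946), both of pyruvate dehydrogenase, while the brightest ones of these genes stood at 0.02 ± 0.09 and -0.04 ± 0.10. Of 17 genes of fatty acid oxidation 6 rose and 4 fell, and with the ratio 2 rose and 0 fell. They were Etfa, which passes electrons from acyl-CoA dehydrogenases towards the respiratory chain (0.56 ± 0.09, and 0.30 ± 0.09 with the ratio), and Hadh, a dehydrogenase of the same pathway named after its values were seen (-0.03 ± 0.11, and 0.34 ± 0.09 with the ratio). Of 12 glycolytic genes 1 rose and 3 fell, and with the ratio Pgam1, phosphoglycerate mutase, was the 1 call (0.25 ± 0.09, adjusted p = 0.0496). Cytosolic counterparts and carriers had 4 of 9 higher, amino acid and ketone use 4 higher and 1 lower of 10, and import and chaperones 2 of 13 higher, and by brightest probe sets none of these lists had a call with the ratio in limma, with 0 of 9, 4 of 10 and 3 of 13 genes at an unadjusted p below 0.05. A dimmer probe set of Glud1, glutamate dehydrogenase, 1416209_at, passed with the ratio at 0.34 ± 0.10 (adjusted p = 0.0222, named after its values were seen), where its brightest stood at 0.18 ± 0.10. Among 9 tested regulators of mitochondrial genes, 1 rose and 2 fell. Nrf1, a transcription factor of nuclear genes for mitochondrial proteins, fell by 0.85 on the log2 scale in probe set 1434627_at (SE 0.12, adjusted p = 7.897e-06) and by 0.83 with the ratio (SE 0.15, adjusted p = 7.303e-04), the 1 call of its list there. Its other probe set, 1424787_a_at, differed by 0.23 ± 0.13 and 0.15 ± 0.18 and was not called.

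The tissue carried lung markers at the top of the signal range, with Sftpc, Sftpa1, Scgb1a1 and Ager between the 99.6 and 100.0 percentile of mean signal. Transcripts of cardiac muscle, which is rich in cycle enzymes, were present too, and all 18 cardiac markers passed the filter. Their summed signal was 17036.7 to 31566.9 on the OVA arrays against 11710.0 to 38098.4 on the saline arrays. Which part of the tissue gave this signal was not tested. Of these 18 markers 2 rose and 2 fell with OVA, where over the 8315 tested genes 1599 rose and 2029 fell. That background also stands beside the counts of the other marker lists here. Of 12 skeletal muscle markers 2 passed the filter, and of 10 fat markers on the array 6, with Ucp1, Cidea, Cidec and Lep below it. Of the tested markers, each by its gene's brightest probe set, 2 rose and 4 fell with OVA of 10 for alveolar type 2 cells, 3 rose and 1 fell of 10 for club cells, 2 fell of 8 for alveolar type 1 cells, and 2 rose of 7 for alveolar macrophages. For neutrophils 2 of 9 fell, for fat 2 rose and 1 fell of 6, and for skeletal muscle 1 rose and 1 fell of 2. For lymphocytes and ciliated cells limma called 0 of 8 and 0 of 5, with 2 and 0 at an unadjusted p below 0.05. The summed signal of the 11 alveolar type 2 markers on the array was 100579.7 to 145433.1 with OVA against 106955.9 to 143098.0 with saline. That of the 12 neutrophil markers on the array was 3907.6 to 7145.2 against 3868.6 to 13794.0. Both sums take in markers below the filter (Nkx2-1, and Camp, Cxcr2 and Il1r2). At DE 2000 alone, 3 of the 9 tested neutrophil markers were lower with OVA, where over the 8315 tested genes 572 rose and 843 fell. Their part in the members' values was not tested.

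Over the 24 arrays, with group means removed, the 9 genes by their brightest probe sets did not form 1 correlated block. The 36 pairs had a median Pearson r of 0.08, between -0.77 for Cs with Idh3a and 0.69 for Cs with Idh3g. With the ratio removed as well, the median was 0.11, between -0.57 for Idh3a with Ogdh and 0.58 for Cs with Ogdh. These arrays share their scaling and the 3'/5' ratio. The genes most like the members' mean profile were Gsta4, Kansl1l, Dap, Ndufa7 and Cct7 (r = 0.86, 0.86, 0.85, 0.82 and 0.80), and Ndufa7, a subunit of respiratory complex I, led with the ratio removed (0.85), followed by Washc2, Gsta4, Dap and Kansl1l (0.84, 0.83, 0.82 and 0.81).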

How the data were processed

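Lung RNA was measured on 24 Affymetrix arrays. The files hold deposited intensities, a linear signal for each probe set on each array, made with MAS5 per the submitters' processing notes (version not given in the sources used here). Trimmed by 2% at each end, the mean of every array was 500.1 to 500.2, so the arrays were already scaled. After 64 of 22690 rows were set aside as controls, log2 signals without any pseudocount were used, and a probe set was tested where its mean exceeded the 40th percentile (geometric mean 138).

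All arrays entered 1 linear model of the 6 group means in limma 3.58.1 (R 4.3.3, trended eBayes), run alone and with the 3'/5' ratio. P-values were adjusted by Benjamini-Hochberg over the 13575 tested probe sets. The fits were tested on simulated data. Gene names come from the array's annotation, and in gene lists the brightest tested probe set stands for a gene. Named were all members and up to 4 genes of each pathway list with the smallest p between the arms. Members and lists were chosen with earlier results of these data known. Coordinates and promoters are RefSeq's (GRCm38.p6). The number of arrays limits precision. Replicate numbers were not treated as pairing samples. The 60 residual correlations of same-numbered arrays between groups had a mean of 0.03, from -0.43 to 0.59, which cannot settle whether they pair. Alternatives were other scalings, filters, a pseudocount of 32, covariates, array weights, a replicate block and fits with arrays left out. Tables and figures were made in Python 3.11.15.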

Additional observations from a re-analysis of the deposited data

Results flagged for a closer look

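In 7 of 96 groups of 4 arrays (16 member probe sets in 6 groups), 1 array stood so far from the other 3 that its gap to the nearest, as a share of the group's range, passed Dixon's critical value. Chance flags about 1 in 20 such groups. For Idh2, air_OVA replicate 3 was lowest at 10.34, with the others between 10.93 and 10.99 (gap over range 0.917), and DE2000_saline replicate 1 was highest at 10.47, with the others between 9.74 and 9.86 (0.841). For Idh3a 1432016_a_at, DE2000_OVA replicate 4 was lowest at 9.68, with the others between 10.25 and 10.32 (0.891), and air_saline replicate 3 was lowest at 8.82, with the others between 9.30 and 9.35 (0.905). These are the arrays with the highest 3'/5' ratio of their groups, at 2.02 and 2.90. Idh3a 1422501_s_at was lowest in air_OVA replicate 3, at 7.80 with the others between 8.41 and 8.47 (0.906). Idh3b 1418885_a_at was lowest in DE500_OVA replicate 3, at 7.22 with the others between 7.97 and 8.06 (0.888). Mdh2 1433984_a_at was lowest in DE500_saline replicate 3, at 10.71 with the others between 11.98 and 12.12 (0.902).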

How the results depend on the processing

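The count of members called between the arms, 7 on average over exposures, was 3 with the 3'/5' ratio, 0 with the B1 signal and 0 with both, and lay between 5 and 8 when each array was left out in turn. In air the 2 calls became 1 with the ratio, 0 with the B1 signal, 0 with both, 5 with array weights and between 1 and 3 without single arrays. At DE 500 the 2 calls became 0 with the ratio, 0 with the B1 signal, 0 with both, 0 when only the groups compared were fitted, and between 1 and 3 without single arrays. At DE 2000 the 3 calls became 0 with both covariates. DE 2000 against air in OVA gained 1 call with the B1 signal, Idh3g 1416788_a_at. Leaving out the 3 arrays apart in the ratio, an alternative chosen after seeing the data, gave 4 calls in air, 0 at DE 500, 1 for DE 500 against air in saline, 0 slopes and 1 call with the ratio in the model. The 3 calls with the ratio lay between 1, without DE500_saline replicate 3, and 4 without single arrays. For these alternatives, the share of all tested probe sets called is given above for the ratio. On average over exposures it is also given for the B1 signal and for both covariates. For the others it is not given, so their changed counts are not read as particular to the members.

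Among the brightest probe sets of the 9 genes, signs turned for Idh3g 1416788_a_at (0.026 with the ratio, 0.22 with the B1 signal, 0.062 with both), for Cs 1450667_a_at (0.11, 0.33 and 0.12) and for Suclg1 (-0.021 with both covariates, -0.0071 with scaling to a common median). They turned for other probe sets too, such as Mdh2 1416478_a_at (0.18 with the ratio, 0.41 with the B1 signal), Idh3g 1416789_at (-0.11 with the B1 signal), Idh3a 1422501_s_at (-0.10) and Cs 1422578_at (-0.12). On the 21 arrays with the ratio Fh1 was at -0.098. With the B1 signal Idh3a 1432016_a_at was 0.28, Idh2 0.47 and Ogdh -0.40, and with both 0.55, 0.31 and -0.28, none called. Without the filter on low signal, the fall of Idh3g 1416788_a_at missed the threshold (adjusted p = 0.0508). The causes were not tested. With the replicate number as a block, which the labels used here do not explain, 7 members were called on average over exposures and 3 in air. It changed no other count.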
